A study of Mus musculus with 6 samples.

Results

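The genes described are the transcription factor gene Pou3f3, its noncoding neighbours Pantr1 and 2900092D14Rik, and the other genes of the Pou3 class, Pou3f1, Pou3f2 and Pou3f4. They were chosen by symbol among probe sets that list a single gene, and 6 of the 6 were measured, each by 1 probe set, among 22180 genes in all. The expression values came from 6 Affymetrix arrays of PDGFRα+ cells sorted from dorsal body wall. The embryos were of the 129SV strain and at stage E14.5. All embryos were heterozygous for an Ebf2(GFP) reporter, and the sorted cells were either Ebf2(GFP)+:Pdgfra+ (called GFP-positive, 3 arrays) or Ebf2(GFP)-:Pdgfra+ (called GFP-negative, 3 arrays). The comparison asked how cells that express the reporter differ from PDGFRα+ cells that do not. The labels do not say whether embryos were pooled or replicates taken from different litters, so the p-values cover only how much these arrays vary, which may be a technical spread. With 3 arrays a group the precision is limited. Values are the authors' log2 expression values, and changes are GFP-positive minus GFP-negative. The difference between the groups was in view when these 6 genes were chosen, so their changes are given as a description with standard errors and without a test.

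POU class 3 proteins bind DNA through a POU-specific domain joined to a homeodomain, and recognise an octamer sequence, often beside a SOX protein. Their genes have few or no introns and are best known from the nervous system, with further roles in the Schwann cell (Pou3f1), the kidney tubule (Pou3f3) and the mesenchyme around the inner ear (Pou3f4) of the mouse. Noncoding RNAs are transcribed on both sides of Pou3f3, and Pantr1 takes its name from that position (Pou3f3 adjacent noncoding transcript).

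In the RefSeq annotation of GRCm38.p6, Pantr1 lies at chr1:42648200-42694825, Pou3f3 at chr1:42695768-42700210 and 2900092D14Rik at chr1:42700336-42703176. Pantr1 and Pou3f3 are 942 bases apart, and only 125 bases separate the end of Pou3f3 from the start of 2900092D14Rik, which is annotated on the same strand. Pou3f1 lies at chr4:124657646-124660655, Pou3f2 at chr4:22482095-22488366 and Pou3f4 at chrX:110814379-110819108. The sequences below come from the RefSeq promoter table for GRCm38.p6. Shown are bases directly before the starts of genes whose values are compared, among them the short gap inside the locus. They are the 250 bases before the annotated starts of Pou3f3 (chr1:42695518-42695767, plus strand), Pou3f4 (chrX:110814129-110814378, plus strand) and Pou3f2 (chr4:22488367-22488616, minus strand), and the gap before 2900092D14Rik (chr1:42700211-42700335, plus strand). All are written 5′ to 3′ on the strand of the gene, and capitals mark CCAAT or, on the other strand, ATTGG. For 4 of the 6 genes the table held a sequence.
Pou3f3: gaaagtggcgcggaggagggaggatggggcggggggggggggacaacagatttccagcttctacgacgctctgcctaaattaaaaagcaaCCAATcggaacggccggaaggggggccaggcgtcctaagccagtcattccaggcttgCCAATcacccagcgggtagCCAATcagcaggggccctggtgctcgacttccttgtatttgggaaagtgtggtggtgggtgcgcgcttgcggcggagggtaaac
2900092D14Rik: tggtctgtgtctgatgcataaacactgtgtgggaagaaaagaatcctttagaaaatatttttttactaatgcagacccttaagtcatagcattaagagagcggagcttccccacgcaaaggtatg
Pou3f4: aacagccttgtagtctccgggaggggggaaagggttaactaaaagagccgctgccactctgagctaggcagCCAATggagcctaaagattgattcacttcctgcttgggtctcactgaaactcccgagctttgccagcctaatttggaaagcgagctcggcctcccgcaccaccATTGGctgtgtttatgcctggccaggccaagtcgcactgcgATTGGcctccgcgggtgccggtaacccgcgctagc
Pou3f2: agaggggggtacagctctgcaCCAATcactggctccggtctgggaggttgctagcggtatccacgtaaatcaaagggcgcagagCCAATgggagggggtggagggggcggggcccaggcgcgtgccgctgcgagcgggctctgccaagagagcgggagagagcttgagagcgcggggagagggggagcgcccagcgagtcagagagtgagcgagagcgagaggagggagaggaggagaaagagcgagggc

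The letters CCAAT, the core of a common promoter element, were found 3 times before Pou3f3, all on the strand of the gene, and 3 times before Pou3f4, of which 1 was on the strand of the gene. Pou3f2 held 2 matches and the gap before 2900092D14Rik none. Of 32851 promoter windows of 250 bases, 33.8% held at least 1 match on either strand, 10.1% at least 2 and 2.79% at least 3. The motif was chosen after these sequences were read, and it is present both before Pou3f3 and Pou3f4 and before Pou3f2. The octamer ATGCAAAT, the site of POU proteins, and CCCNNGGG, the core of the EBF site, were searched on both strands and were in none of the 4 sequences. They occur in 1.6% and 11.8% of all windows. The windows before Pou3f3, Pou3f4 and Pou3f2 had GC contents of 60.8%, 58% and 66.8%, against a median of 52.4% over all windows, and the gap before 2900092D14Rik had 40%.

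The 3 genes of the Pou3f3 locus were all lower in GFP-positive cells, and the arrays of the groups did not overlap for any of them. Pou3f3 was at 7.96, 7.76 and 8.0 in GFP-positive replicates 1, 2 and 3, against 9.76, 9.26 and 9.30 in GFP-negative replicates 1, 2 and 3. Every GFP-positive array lay at least 1.26 log2 units below every GFP-negative array. The group means were 7.91 ± 0.129 in GFP-positive cells and 9.44 ± 0.275 in GFP-negative cells (SD, n = 3 each), which made Pou3f3 2.89-fold lower (log2 change −1.53 ± 0.14 SE). Of all genes measured, 0.699% had a more negative change. In bulk samples such as these, fewer cells that express a gene and less RNA per cell cannot be told apart.

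2900092D14Rik, a long noncoding RNA gene, was at 7.42, 7.20 and 7.42 in the GFP-positive replicates, against 9.25, 8.89 and 9.15 in the GFP-negative replicates. The gap between the groups was 1.47 log2 units. Its mean was 7.35 ± 0.127 in GFP-positive cells and 9.10 ± 0.190 in GFP-negative cells (SD, n = 3 each), a 3.37-fold lower level (log2 change −1.75 ± 0.11 SE). Of the 6 genes it had the largest decrease, and 0.546% of all genes had a more negative change. Within the groups it followed Pou3f3 in part. Replicate 2 was the lowest array of each group for both genes, and GFP-negative replicate 1 was the highest array of all for both. On GFP-negative replicate 3, Pou3f3 lay near its value in replicate 2 and 2900092D14Rik near its value in replicate 1. Cyp27a1, Masp1, Enpep and Gfra3, genes outside the locus described below, had the same lowest and highest arrays. Whether the probe set of 2900092D14Rik measures a separate RNA or a transcript that runs on past the annotated end of Pou3f3 was not tested.

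Pantr1, the long noncoding RNA gene on the other side, was at 6.64, 6.56 and 6.7 in the GFP-positive replicates, against 7.39, 7.51 and 7.29 in the GFP-negative replicates. The groups were 0.59 log2 units apart. The means of 6.63 ± 0.0718 in GFP-positive cells and 7.40 ± 0.108 in GFP-negative cells (SD, n = 3 each) differed 1.70-fold (log2 change −0.76 ± 0.07 SE). Detection calls are not part of the files, so the log2 value under which 40% of all gene means lay, 6.78, was used as a mark of dim genes. The GFP-positive mean of Pantr1 lay below that mark, so its fold may be understated. Unlike Pou3f3, Pantr1 was highest in GFP-negative replicate 2.

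**Figure D1:**
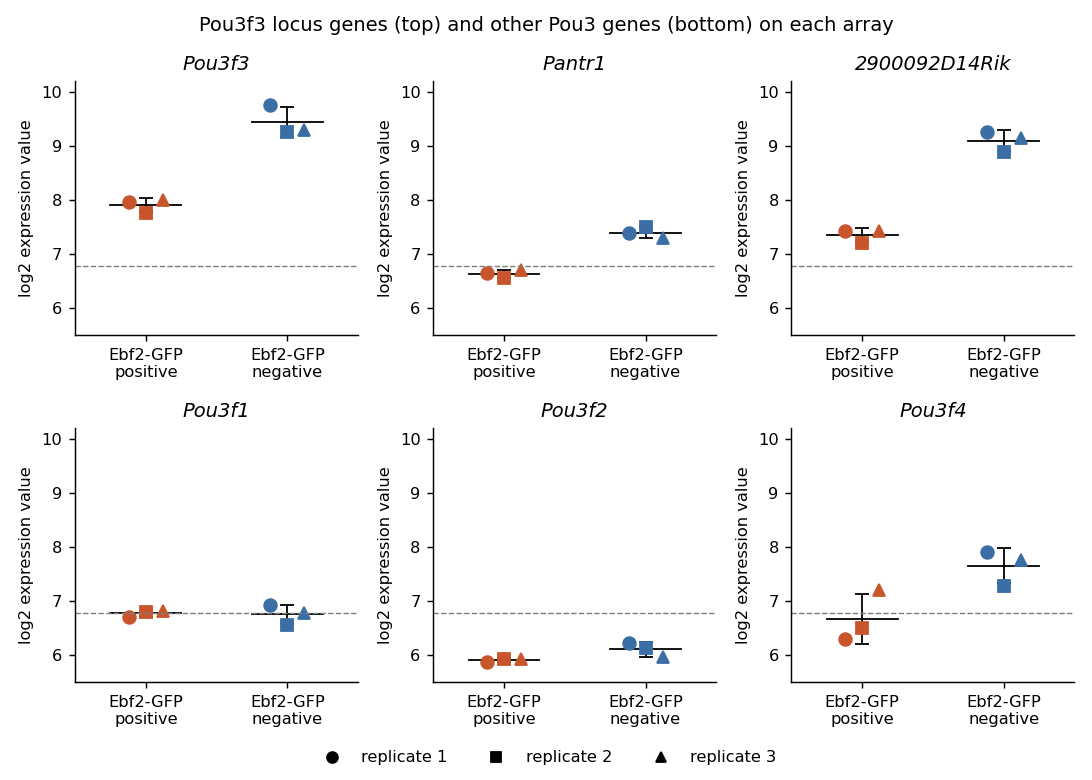
Log2 expression value (y axis) of each of the 6 genes on the GFP-positive arrays (left) and the GFP-negative arrays (right), with marker shapes for replicates 1 to 3, horizontal lines for group means, bars for 1 SD (n = 3) and a dashed line at the mark of dim genes (log2 6.78). The groups are separate for Pou3f3, Pantr1 and 2900092D14Rik, lie 0.09 apart for Pou3f4 and overlap for Pou3f1.

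The other Pou3 genes differed among themselves. Pou3f4 was lower in GFP-positive cells, at 6.30, 6.51 and 7.20 in replicates 1, 2 and 3, against 7.91, 7.29 and 7.76 in the GFP-negative replicates. The groups did not overlap, but GFP-positive replicate 3 and GFP-negative replicate 2 were only 0.09 log2 units apart. The means were 6.67 ± 0.470 in GFP-positive cells and 7.65 ± 0.326 in GFP-negative cells (SD, n = 3 each), a 1.97-fold difference (log2 change −0.98 ± 0.26 SE), with the GFP-positive mean below the mark of dim genes. Its standard error was the largest of the 6 genes. The change was −1.25 without GFP-positive replicate 3 and −0.80 without GFP-positive replicate 1.

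Pou3f1, which promotes the step to myelination in Schwann cells, was at 6.71, 6.80 and 6.82 in the GFP-positive replicates, against 6.92, 6.57 and 6.78 in the GFP-negative replicates. The GFP-positive arrays lay inside the range of the GFP-negative ones. Its log2 change was 0.02 ± 0.10 SE, with means of 6.77 ± 0.060 in GFP-positive cells and 6.75 ± 0.179 in GFP-negative cells (SD, n = 3 each). Pou3f2, a neuronal factor of cortex and hypothalamus, was at 5.88, 5.94 and 5.93 in the GFP-positive replicates, against 6.22, 6.14 and 5.96 in the GFP-negative replicates. These groups were 0.02 log2 units apart, and the log2 change was −0.19 ± 0.08 SE, with means of 5.91 ± 0.0329 and 6.11 ± 0.135 in GFP-positive and GFP-negative cells (SD, n = 3 each). The mean over all 6 arrays lay below the mark of dim genes for both Pou3f1 and Pou3f2, so 4 of the 6 genes were above it, and for dim genes a change of RNA may not show on the array.

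Across the 6 genes, 5 were lower without overlap between the groups, where 9.78% of all genes were (22% did not overlap in either direction). This contrast was the one on which the genes were compared when they were chosen, so nothing is read from that count. The median log2 change was −1.53 for the 3 locus genes and −0.19 for the other 3 Pou3 genes, beside 0.02 over all genes. By replicate number, the differences of Pou3f3 were −1.79, −1.50 and −1.30 for replicates 1, 2 and 3, and those of 2900092D14Rik were −1.83, −1.69 and −1.74. Those of Pantr1 were −0.75, −0.95 and −0.59, and those of Pou3f4 −1.61, −0.77 and −0.56. Pou3f2 differed by −0.35, −0.20 and −0.03, and Pou3f1 by −0.22, 0.23 and 0.04, so that Pou3f1 alone of the 6 genes had differences of both signs. Probe sets differ in how strongly they bind, so the levels of different genes were not set against each other.

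**Figure D2:**
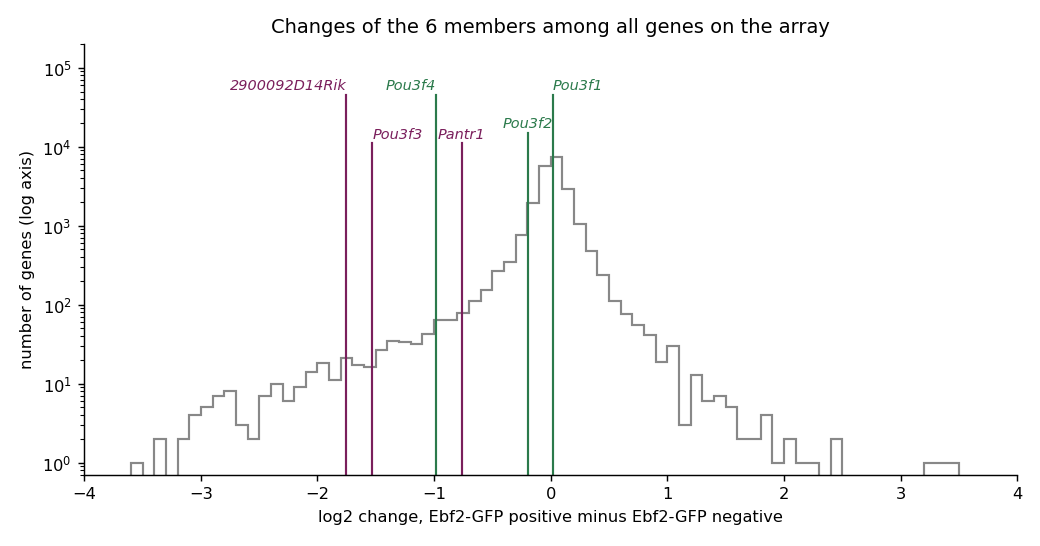
Number of genes (y axis, log axis) by log2 change, GFP-positive minus GFP-negative (x axis, bins of 0.1, empty bins left blank), with vertical lines at the changes of the 3 locus genes (purple) and the other Pou3 genes (green). 2900092D14Rik at −1.75 and Pou3f3 at −1.53 lie in the lower tail, and Pou3f1 at 0.02 lies at the peak.

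None of the measured genes that flank the locus passed the main test, which did not pair the arrays. Of the 10 measured genes on either side of the locus on chromosome 1, 0 of 20 passed limma's test at an adjusted p under 0.05, where 6.49% of all genes did (3.84% lower and 2.65% higher in GFP-positive cells), and 6 of the 20 had an unadjusted p under 0.05, where 17.7% of all genes did. Their median log2 change was 0.02, and 9 of the 20 lay below the mark of dim genes. Mrps9, a gene of the mitochondrial ribosome and the nearest measured gene after the locus, starts 151 kb from the end of Pou3f3. It was at 8.54, 8.53 and 8.53 in the GFP-positive replicates, against 8.52, 8.49 and 8.53 in the GFP-negative replicates, so that all 6 arrays lay close together (log2 change 0.02 ± 0.05 SE, limma adjusted p = 0.889). On the other side the nearest measured gene was the noncoding 4930448I06Rik, 1514.5 kb away, whose values of 4.39 to 4.50 in GFP-positive and 4.44 to 4.52 in GFP-negative cells overlapped and lay below the mark of dim genes.

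Farther out, the flanking genes with the largest changes were chosen after their values were seen. Ecrg4, which encodes a secreted peptide precursor and lies 1030.4 kb after Pou3f3, differed by −0.64 ± 0.16 SE on the log2 scale (limma adjusted p = 0.075). Il1rl2, a receptor gene of the interleukin 1 family, had one of 0.68 ± 0.26 SE (adjusted p = 0.233). With the replicate number as a block, which pairs the arrays, these 2 genes passed, where 10% of all genes did. Ecrg4 and Mfsd9 passed with array weights and without GFP-negative replicate 1. Mfsd9, a transporter family gene, had a log2 change of −0.40 ± 0.10 SE in the main test (limma adjusted p = 0.0745). Fhl2, 422.9 kb after Pou3f3, was higher in GFP-positive cells, by 0.41 ± 0.11 SE (limma adjusted p = 0.0894), and its groups did not overlap. The measured genes next to the other Pou3 genes did not pass either. Their log2 changes were −0.01 for Utp11 and 0.00 for 4933407E24Rik beside Pou3f1, 0.18 for Fbxl4 and 0.07 for Gm42262 beside Pou3f2, and −0.04 for Gm7134 and 0.10 for Cylc1 beside Pou3f4 (limma adjusted p between 0.397 and 0.999).

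**Figure D3:**
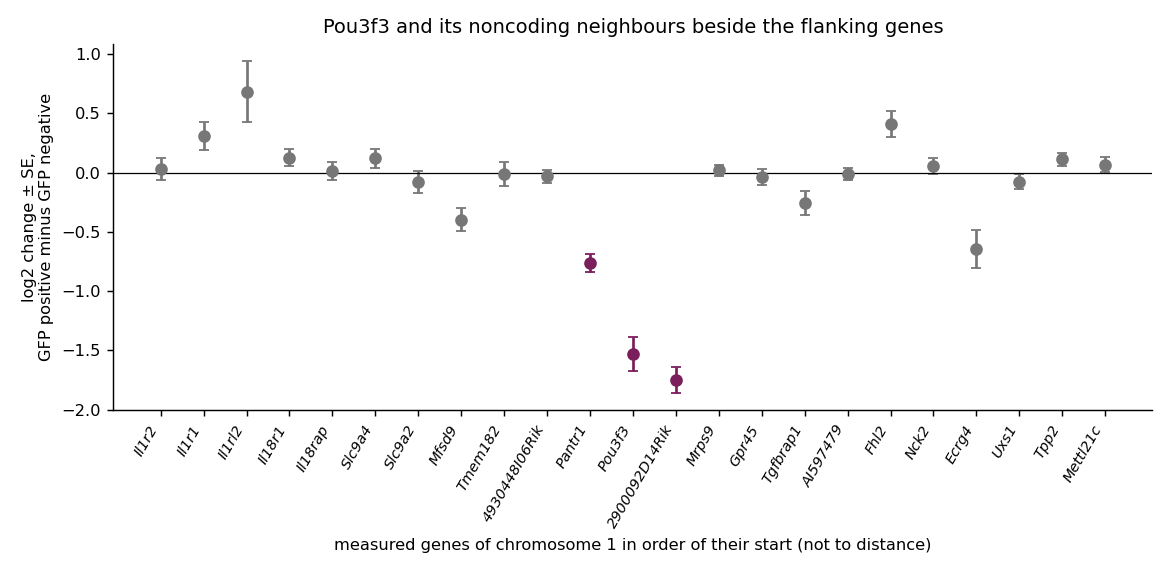
Log2 change, GFP-positive minus GFP-negative (y axis, bars show limma's SE), of the 3 locus genes (purple) and the 10 measured genes on either side (grey), in order of their start on chromosome 1 and not to distance. The locus genes lie at −0.76, −1.53 and −1.75, and the flanking genes between −0.64 and 0.68.

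The genes with the array pattern most like that of Pou3f3 were found by the root mean square distance between log2 values, each gene centred on its own mean over the 6 arrays. Of 22174 genes outside the 6 described here, the nearest was Fgfr3, a fibroblast growth factor receptor that restrains the growth of cartilage, at a distance of 0.0764 log2 units. It was at 7.45, 7.40 and 7.49 in the GFP-positive replicates, against 9.28, 8.95 and 8.89 in the GFP-negative replicates. Like Pou3f3, it was lowest in GFP-positive replicate 2 and highest in GFP-negative replicate 1. Next came Cyp27a1, a sterol hydroxylase (0.0839), Masp1, a protease of the lectin pathway of complement (0.0856), Enpep, an aminopeptidase that cleaves angiotensin (0.0988), and Gfra3, the receptor of artemin (0.108). Their log2 changes ran from −1.59 for Fgfr3 to −1.43 for Enpep. They were chosen for this likeness to Pou3f3, so their changes are not tested here.

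By the same measure 2900092D14Rik was 0.152 log2 units from Pou3f3, and 14 other genes were nearer. Pou3f4 was at 0.393 with 246 genes nearer, and Pantr1 at 0.424 with 311 genes nearer. Pou3f2 (0.685) and Pou3f1 (0.786) lay farther away, below the median distance of 0.8 over the other genes. The distance takes in the size of the change as well as the order of the arrays.

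**Figure D4:**
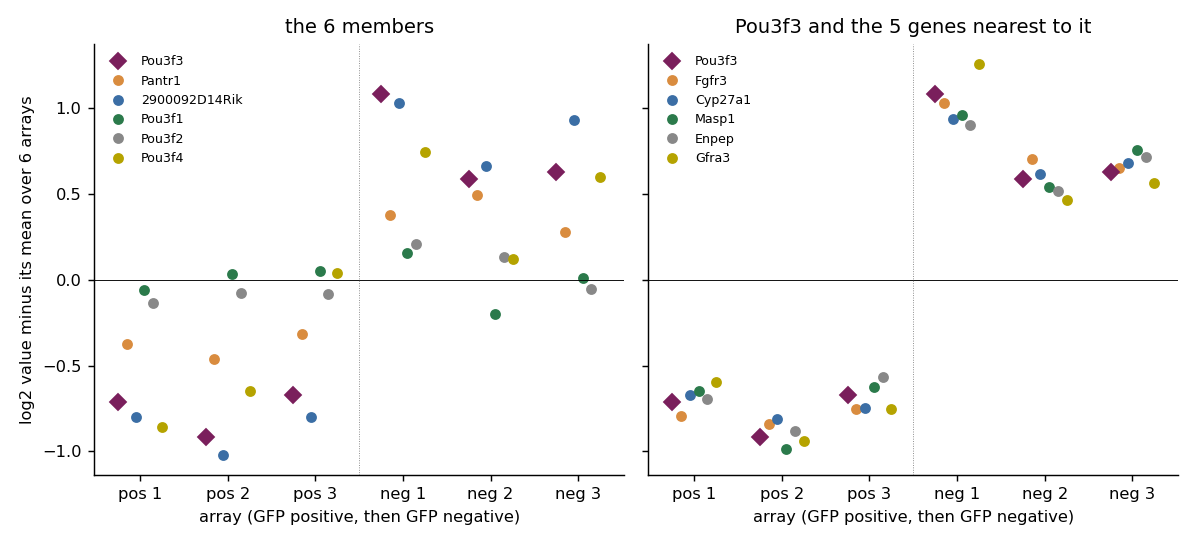
Log2 value minus the gene's mean over the 6 arrays (y axis) on each GFP-positive and GFP-negative array (x axis), for the 6 genes (left panel) and for Pou3f3 beside the 5 genes nearest to it (right panel). Pou3f3 and 2900092D14Rik lie within 0.13 of each other on 5 of the 6 arrays and 0.30 apart on GFP-negative replicate 3, Pou3f4 on GFP-positive replicate 3 lies near its overall mean, and the 5 nearest genes overlie Pou3f3.

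Of 11 POU genes of other classes 7 were measured. Limma called 0 of the 7, with 1 at an unadjusted p under 0.05, counts near the shares of 6.49% and 17.7% over all genes. Their log2 changes lay between −0.24 for Pou2f2, a factor of B lymphocytes, and 0.12 for Pou4f1, a factor of sensory neurons, with a median of −0.01. Pou6f1 was at 8.70 to 9.09 in GFP-positive and 8.85 to 8.96 in GFP-negative cells, and the groups overlapped. Of the 7 genes, 5 had a mean below the mark of dim genes, Pou2f2 and the pluripotency factor gene Pou5f1 among them.

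Among the SOX genes, which include known partners of POU proteins, 3 of 11 measured genes were lower and none higher, beside 3.84% and 2.65% of all genes. The median log2 change of the 11 was −0.14. Sox2, a factor of neural progenitors, was at 6.45, 6.81 and 6.79 in the GFP-positive replicates, against 7.40, 7.65 and 7.13 in the GFP-negative replicates (log2 change −0.71 ± 0.15 SE, limma adjusted p = 0.0454). Sox10, a factor of neural crest and glia, fell 1.54-fold (−0.62 ± 0.11 SE, adjusted p = 0.021), and Sox9, a factor of cartilage, fell 1.37-fold (−0.45 ± 0.08 SE, adjusted p = 0.0229). Sox4 and Sox11, which are widely expressed in embryonic mesenchyme, did not pass, with log2 changes of 0.07 for Sox4 and −0.11 for Sox11. Without any 1 GFP-positive replicate none of the 3 calls held, and without GFP-negative replicate 2 only that of Sox10 did. The call of Sox2 also ended without GFP-negative replicate 1, after quantile normalization (adjusted p = 0.0501) and with array weights (0.0601).

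Of 12 genes that depend on Pou3 factors in other mouse tissues, 1 was higher and 1 lower, where 2.65% of all genes were higher and 3.84% lower. At 1 gene each way the counts are close to these shares, and the median log2 change was 0.05. An unadjusted p under 0.05 was found for 4 of the 12, where 17.7% of all genes had one. Fabp7, a fatty acid binding protein of glia, was at 9.83, 10.60 and 10.59 in the GFP-positive replicates, against 11.94, 12.19 and 11.82 in the GFP-negative replicates (log2 change −1.64 ± 0.22 SE, limma adjusted p = 0.00802). Nes, the intermediate filament nestin, rose 1.53-fold (0.61 ± 0.10 SE, adjusted p = 0.0172), and its groups did not overlap, but its call ended without GFP-positive replicate 1 (0.0819) or 2 (0.0807). Egr2, which Pou3f1 activates in Schwann cells, overlapped between the groups (log2 change −0.18 ± 0.37 SE, adjusted p = 0.862). The kidney tubule genes Umod, Slc12a1, Bsnd and Kcnj1, which need Pou3f3 in the mouse kidney, had log2 changes between −0.08 and 0.07 and means below the mark of dim genes. With the replicate number as a block, under which 10% of all genes passed, so did 4 of the 12, Crh and Ptger3 being the further ones, and both of these were higher.

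Of 14 measured neuronal genes, which could mark nerve tissue in the sorted samples, 1 was higher and 2 were lower, beside 2.65% and 3.84% of all genes. Their median log2 change was −0.03, and 7 of the 14 had an unadjusted p under 0.05, where 17.7% of all genes did. Olig2, a factor of oligodendrocyte and motor neuron progenitors, was at 5.66, 5.66 and 5.68 in the GFP-positive replicates, against 6.88, 6.75 and 7.0 in the GFP-negative replicates (log2 change −1.21 ± 0.07 SE, limma adjusted p = 0.000527), with a GFP-positive mean below the mark of dim genes. Stmn2, a microtubule regulator of neurons, fell 1.78-fold (−0.83 ± 0.13 SE, adjusted p = 0.0131), whereas Nefm, a neurofilament, rose 1.51-fold (0.59 ± 0.08 SE, adjusted p = 0.00951). Stmn2 did not pass without GFP-negative replicate 1 or 2 or GFP-positive replicate 1 (largest adjusted p = 0.0638). Nefm did not pass without GFP-positive replicate 1 (0.0515), where Olig2 was the only neuronal gene called. With the replicate block 6 of the 14 passed, 3 in each direction, beside 10% of all genes. Of the Schwann cell markers, 2 of 8 measured genes were lower, Sox10 and Fabp7, and none higher, where 3.84% of all genes were lower and 2.65% higher. At an unadjusted p under 0.05 were 6 of the 8, where 17.7% of all genes were. All 8 changes were negative, between −1.64 and −0.01 on the log2 scale, with a median of −0.39. Without any 1 GFP-positive replicate only Fabp7 passed, and without GFP-negative replicate 3 the markers Cdh19 and Erbb3 passed as well, as did the myelin gene Mbp with the replicate block. The array means of these 8 genes lay between 7.39 and 7.63 in GFP-positive and between 7.92 and 8.22 in GFP-negative cells. Their part, and that of the neuronal genes, in the decrease at the Pou3f3 locus was not tested.

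Markers of further cell types differed between the same arrays. Of 10 macrophage markers all 10 were lower in GFP-positive cells, where 3.84% of all genes were. Csf1r, the growth factor receptor of macrophages, was lower by 2.84 on the log2 scale (limma adjusted p = 0.00766). The array means of the 10 markers were 7.23, 8.03 and 8.30 in the GFP-positive replicates, against 10.18, 9.66 and 10.59 in the GFP-negative replicates. Without GFP-negative replicate 1 or GFP-positive replicate 2, 5 of the 10 passed. In the GFP-positive group Pou3f4 and Pou3f1 had that same order of arrays, and Pou3f3, Pantr1 and 2900092D14Rik were lowest in replicate 2. In the GFP-negative group none of the 6 genes had the macrophage order: the markers were highest in replicate 3, Pantr1 in replicate 2 and the other 5 genes in replicate 1. All 8 cartilage markers were lower too, beside the same 3.84% of all genes. Their array means were 8.90, 9.27 and 9.22 in the GFP-positive replicates, against 11.14, 10.96 and 10.97 in the GFP-negative replicates. Among them the matrix gene Matn3 showed a log2 change of −2.20 ± 0.08 SE (limma adjusted p = 0.000171). In the GFP-negative group the cartilage means had the order of Pou3f3, 2900092D14Rik, Pou3f4 and Pou3f1, highest in replicate 1 and lowest in replicate 2. Pantr1 and Pou3f2 had other orders there. The cartilage means of GFP-negative replicates 2 and 3 were close, at 10.96 and 10.97. In the GFP-positive group the cartilage means were highest in replicate 2, where Pou3f3, Pantr1 and 2900092D14Rik were lowest. Of the 6 genes only Pou3f2 had the cartilage order in that group, with 5.94 and 5.93 in replicates 2 and 3. Orders of 3 arrays with gaps this small can match easily, so nothing is read from the orders given here. Whether macrophages or cartilage cells had a part in the changes of the Pou3 genes was not tested. Of 6 endothelial markers 1 was higher, the surface protein gene Emcn, and 1 lower, the cadherin gene Cdh5, and limma called none of 7 muscle markers (1 at an unadjusted p under 0.05), counts to be read beside the shares over all genes given above. With the replicate block the endothelial gene Pecam1 was also lower. Emcn did not pass without any 1 GFP-positive replicate or without GFP-negative replicate 3, and Cdh5 not without GFP-positive or GFP-negative replicate 2. Of 10 general mesenchyme markers 3 were lower and none higher, beside 3.84% and 2.65% of all genes. The 3 were the transcription factor genes Twist1 and Twist2 and the matrix gene Lum. Lum passed in only 1 of the 6 fits that left out an array, that without GFP-negative replicate 1. The array means of these 10 genes were 12.41 to 12.49 in GFP-positive and 12.73 to 12.76 in GFP-negative cells. By its brighter probe set, Ebf2 itself was at 12.04, 12.04 and 11.93 in the GFP-positive replicates, against 8.16, 8.60 and 9.21 in the GFP-negative replicates (limma adjusted p = 0.000916). By that probe set the arrays followed their labels. Pdgfra, for which all cells were sorted, differed by 0.19 ± 0.06 SE on the log2 scale (adjusted p = 0.178).

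**Figure D5:**
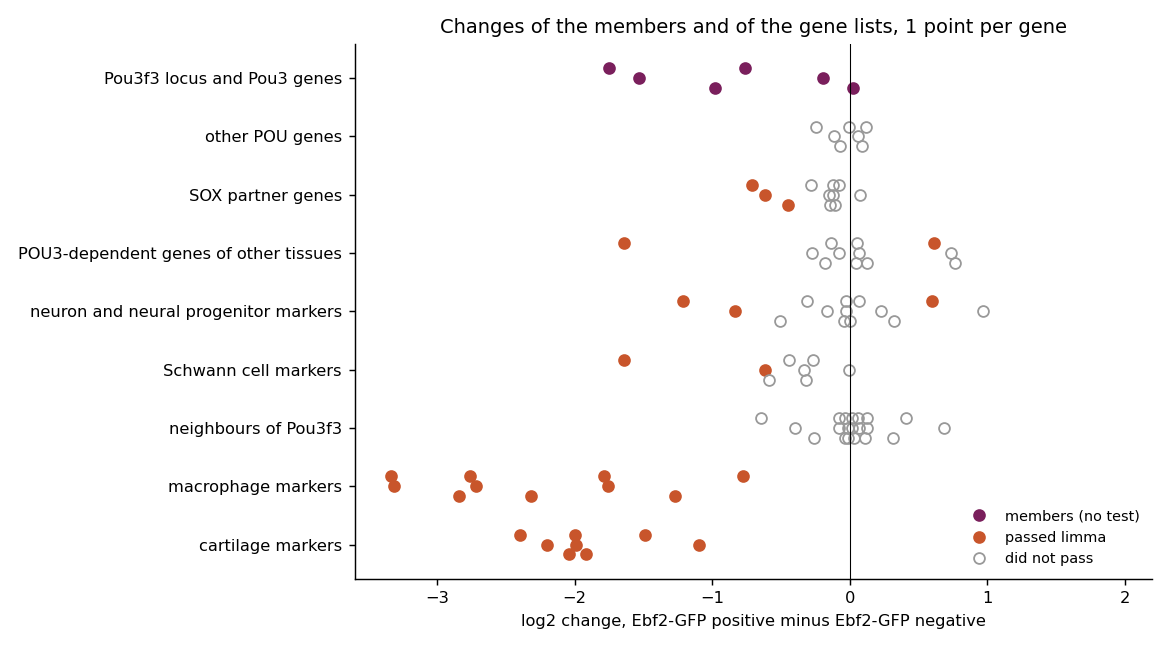
Log2 change, GFP-positive minus GFP-negative (x axis), of each gene (1 point) in the lists named on the y axis, with purple for the 6 genes described here (no test), filled orange for genes that passed limma's test and open grey for those that did not. The other POU genes lie between −0.24 and 0.12 and the flanking genes between −0.64 and 0.68, and all macrophage and cartilage markers lie at −0.77 or below.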

How the data were processed

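The authors deposited log2 values for 41345 probe sets on each of 6 arrays. RMA and limma are named, per the submitters' processing notes, without versions, and filters were not given in the sources used here. The log2 scale was inferred from the range of values (array medians between 6.657 and 6.712). Genes were named from the 23521 probe sets that the platform table lists with 1 gene, with symbols updated through RefSeq GRCm38.p6, and each gene was represented by its brightest probe set on average. For 22180 genes, limma 3.58.1 (R 4.3.3; lmFit, then eBayes) compared the groups with no covariate. P-values were adjusted by the Benjamini-Hochberg method across all of them, and passing means an adjusted p under 0.05. The method was tested on simulated data in which all arrays were independent, without the pairing by replicate number described below.

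The 6 genes, the 10 gene lists (93 of 100 entries measured) and the alternatives were chosen with earlier results of these data known. Named are the 6 genes, Ebf2 and Pdgfra, up to 4 passing genes with the smallest p per list, the nearest measured genes, the 5 genes most like Pou3f3, and genes said to be chosen after their values were seen. Further list members are given as values where a sentence describes the list. Unmeasured list entries were not analysed here.

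The groups share replicate numbers. Deviations from the group means correlated at 0.314 to 0.519 for arrays of the same number and at −0.384 to −0.024 for the others. Deviations within a group cancel, so the negative values largely follow from the positive ones and are not separate support. The numbers were taken to pair the arrays, on the evidence of the data alone. The main test and the standard errors did not use this pairing. The plots were drawn with matplotlib 3.10.9.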

Additional observations from a re-analysis of the deposited data

How the results depend on the processing

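The replicate block, the eBayes settings, averaged probe sets and the removal of dim genes could not alter the changes of the 6 genes. Leaving out 1 of 3 arrays always moves a group mean by less than the spread of that group. Under median centring, quantile normalization and array weights, Pou3f3 ran from −1.53 to −1.50. Over all alternatives that gave a value, the log2 changes of Pou3f3 ran from −1.62 to −1.37. Those of 2900092D14Rik ran from −1.86 to −1.67, those of Pantr1 from −0.82 to −0.71 and those of Pou3f4 from −1.25 to −0.80. Those of Pou3f2 ran from −0.27 to −0.14 and those of Pou3f1 from −0.07 to 0.10. Pou3f1 and Pou3f2 had no value without dim genes. Ebf2 kept its call, with a change of 1.69 when its 2 probe sets were averaged, against 3.35 for the brighter one. The dimmer probe set of Ebf2 therefore showed almost no difference between the groups, and the averaged change came from the brighter one.

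With the replicate block, which leaves the changes as they are, 2228 genes passed in place of 1439, as did 4 genes that depend on Pou3 factors, 6 neuronal genes and 2 flanking genes, and with array weights 2 flanking genes passed. At an adjusted p under 0.01, 539 genes passed, with 0 SOX genes, 1 Pou3-dependent gene and 1 Schwann cell marker, and 2 of the 10 macrophage and 0 of the 6 endothelial markers. Leaving out 1 array in turn gave 629 to 1067 genes, 0 to 3 SOX genes, 1 to 3 Pou3-dependent genes, 1 to 3 neuronal genes, 1 to 4 Schwann cell markers and 0 to 2 flanking genes. Without GFP-positive replicate 1, 2 or 3 the totals were 629, 667 and 762. The other POU genes had 0 calls throughout. Fewer arrays also mean fewer degrees of freedom, and further causes were not tested. Without detection calls, a lack of change cannot be told apart from a lack of signal for Pou3f1, and Pou3f2 is dimmer still.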
